A study of Mus musculus with 8 samples.

Results

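Interferon-responding neutrophils of the blood were examined as a state within the circulating neutrophils of tumor-bearing mice. A droplet barcode was a member when it met every limit of a fixed rule. It held at least 500 gene UMIs (unique molecular identifiers, each standing for 1 captured transcript), at least 200 genes, at most 25% mitochondrial UMIs and at least 20 hashtag UMIs. S100a8, S100a9, Retnlg, Csf3r and Cxcr2 made up at least 5% of its UMIs, which marked it as a neutrophil, and Ngp, Camp and Ltf together gave fewer than 3 UMIs, which set it apart from granule-rich cells. Ifit1, Ifit3, Ifit3b, Rsad2 and Cmpk2 together gave at least 3 UMIs, a sum called the 5-gene count here. The rule took 1356 of 10991 mature-gate neutrophils of the blood that had a genotype label, where mature-gate means every limit except the last. The whole series held 32121 barcodes past the filters. Because the cells were chosen on the 5 genes, the values of these genes and every contrast of members with other neutrophils are descriptions without a test.

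The study took CD45+CD11b+Ly6Chi cells by sorting, from MC38 colon carcinomas and from blood of the mice that carried these tumors under the skin, and counted transcripts by droplet sequencing of 3′ ends. In the IR groups the tumor received 1 dose of 20 Gy and cells were taken 3 days later, and control tumors were not irradiated. The 4 blood pools were control WT, control cKO, IR WT and IR cKO, and each of the 2 blood libraries mixed both genotypes under different hashtag antibodies. WT mice were Ythdf2 fl/fl without Cre and cKO mice were Lyz Cre+;Ythdf2 fl/fl, so both carried the floxed allele, and this Cre acts across myeloid cells, neutrophils, monocytes and macrophages alike. All mice were on the C57BL/6J background, male and female, aged 8 to 10 weeks, and 5 were pooled in each group. Each group was therefore 1 pool, no error between mice could be computed, and the 95% intervals given here cover counting error only.

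Type I interferons bind a receptor made of IFNAR1 and IFNAR2, whose kinases JAK1 and TYK2 phosphorylate transcription factors of the STAT family, STAT2 among them. With IRF9 these form the complex ISGF3, which binds the interferon-stimulated response element (ISRE) in the promoters of antiviral genes. The IFIT proteins bind foreign RNA, RSAD2 (viperin) makes a nucleotide that ends viral RNA chains, and CMPK2 is a nucleotide kinase encoded beside Rsad2. Circulating neutrophils with such a programme are a known state in mouse and human blood.

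Neutrophils were many in the Ly6Chi sort, at 62.5% of blood control and 65.1% of blood IR barcodes past the filters. Gene UMIs came to 51731085 and 51653956 in these libraries. Ythdf2 tags were higher in members labelled cKO, the reverse of a loss of the transcript, and Lyz2, the locus that carries Cre, was lower there. The study does not say which part of Ythdf2 is floxed. Tags at the 3′ end outside that part would check nothing about the deletion. WT and cKO are therefore used below as names of hashtag labels. Of the 1356 members, 7 had a barcode that also passed the filters in another library. Barcodes of at most 50 UMIs, which stand for free RNA, held the 5 genes at 156 CPM (UMIs scaled to a total of 1000000 gene UMIs) in blood control and 293 CPM in blood IR. A droplet of median size made only of this RNA would have a mean 5-gene count of 0.395 and 0.767. A mean below the limit of 3 does not give the share of such droplets that would reach it. Mature-gate neutrophils that were not members held the 5 genes at 81.1 and 120 CPM, below the level in free RNA. The limit of 3 UMIs caps the level in these cells but not in free RNA, so this follows in part from the rule. Members and others together held them at 311 and 251 CPM in control WT and control cKO. In IR WT and IR cKO the level was 620 and 536 CPM. All 4 pools were above the free RNA of their library.

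The promoters of the 5 rule genes and of Isg15 are shown because the letters of the ISRE were found in all of them except Cmpk2. Each window runs from 250 bases before to 50 bases after the transcription start in RefSeq on GRCm38.p6, in the direction of the gene, with matches to GAAANNGAAA or its reverse complement TTTCNNTTTC in capitals.
Ifit1, chr19:34640639-34640938, forward strand: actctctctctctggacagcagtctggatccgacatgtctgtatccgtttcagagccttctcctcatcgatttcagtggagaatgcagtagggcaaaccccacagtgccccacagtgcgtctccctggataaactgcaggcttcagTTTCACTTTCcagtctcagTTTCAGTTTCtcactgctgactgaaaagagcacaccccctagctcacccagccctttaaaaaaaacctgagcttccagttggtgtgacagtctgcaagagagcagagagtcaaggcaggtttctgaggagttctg
Ifit3, chr19:34583279-34583578, forward strand: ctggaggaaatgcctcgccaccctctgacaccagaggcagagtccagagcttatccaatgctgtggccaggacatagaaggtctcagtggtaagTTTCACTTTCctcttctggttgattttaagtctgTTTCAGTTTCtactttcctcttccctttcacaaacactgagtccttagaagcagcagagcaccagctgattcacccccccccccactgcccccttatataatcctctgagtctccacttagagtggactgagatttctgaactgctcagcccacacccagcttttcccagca
Ifit3b, chr19:34607707-34608006, forward strand: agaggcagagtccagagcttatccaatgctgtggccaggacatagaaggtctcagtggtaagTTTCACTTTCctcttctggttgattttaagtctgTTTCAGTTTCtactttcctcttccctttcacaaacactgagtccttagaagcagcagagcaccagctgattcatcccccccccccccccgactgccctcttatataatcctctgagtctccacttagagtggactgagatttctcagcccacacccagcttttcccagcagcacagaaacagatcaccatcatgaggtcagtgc
Rsad2, chr12:26456403-26456702, reverse strand: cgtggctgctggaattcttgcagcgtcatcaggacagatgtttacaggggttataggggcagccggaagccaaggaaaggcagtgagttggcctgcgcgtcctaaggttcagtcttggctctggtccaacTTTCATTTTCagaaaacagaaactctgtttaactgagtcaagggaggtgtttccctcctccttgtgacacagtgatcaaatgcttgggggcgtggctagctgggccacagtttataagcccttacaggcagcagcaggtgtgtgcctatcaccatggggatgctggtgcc
Cmpk2, chr12:26468965-26469264, forward strand: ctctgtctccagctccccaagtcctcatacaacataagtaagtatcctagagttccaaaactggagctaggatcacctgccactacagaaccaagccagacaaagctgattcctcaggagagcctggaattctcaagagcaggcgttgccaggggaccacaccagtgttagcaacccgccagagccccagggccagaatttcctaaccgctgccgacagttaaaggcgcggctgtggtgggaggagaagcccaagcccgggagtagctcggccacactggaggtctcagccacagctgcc
Isg15, chr4:156200769-156201068, reverse strand: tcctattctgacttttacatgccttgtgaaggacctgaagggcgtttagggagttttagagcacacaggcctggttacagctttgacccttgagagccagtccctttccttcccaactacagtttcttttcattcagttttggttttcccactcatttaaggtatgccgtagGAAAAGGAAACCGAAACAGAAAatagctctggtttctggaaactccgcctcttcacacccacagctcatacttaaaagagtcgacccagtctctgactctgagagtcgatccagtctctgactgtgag

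In Ifit1 the matches began 104 and 85 bases upstream of the start, and in Rsad2 the only match began 120 bases upstream. Ifit3 held matches 156 and 122 bases upstream and Ifit3b held them 188 and 154 bases upstream, and the windows of these neighbouring genes were 75% identical over 268 bases when shifted by 32 bases. Isg15 had 3 overlapping matches that began 78, 72 and 66 bases upstream, and the Cmpk2 window had 0 matches. Over all 32851 windows of the reference, 1131 (3.44%) held the letters on either strand. A match describes the letters of the window and shows no binding.

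The question of the first comparison was how common the state was in each pool, among the neutrophils caught by the Ly6Chi sort. The shares are not those of all circulating neutrophils, and the part of the sort in them was not tested. Members made up 8.78% of mature-gate neutrophils in control WT (275 of 3131 cells, 95% interval 7.81 to 9.83), 7.43% in control cKO (161 of 2166, 6.36 to 8.62), 16.9% in IR WT (524 of 3109, 15.6 to 18.2) and 15.3% in IR cKO (396 of 2585, 14.0 to 16.8). Both IR pools stood above both control pools, with intervals that did not overlap. The IR share was higher by 8.07 percentage points (6.42 to 9.72) in cells labelled WT, a ratio of 1.92, and by 7.89 percentage points (6.10 to 9.66) in cells labelled cKO, a ratio of 2.06. The cKO share minus the WT share was -1.35 percentage points (-2.82 to 0.161) in control and -1.54 percentage points (-3.44 to 0.388) after IR, and both intervals included 0. With 1 pool per group and 1 library per treatment, IR and library cannot be told apart.

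**Figure D1:**
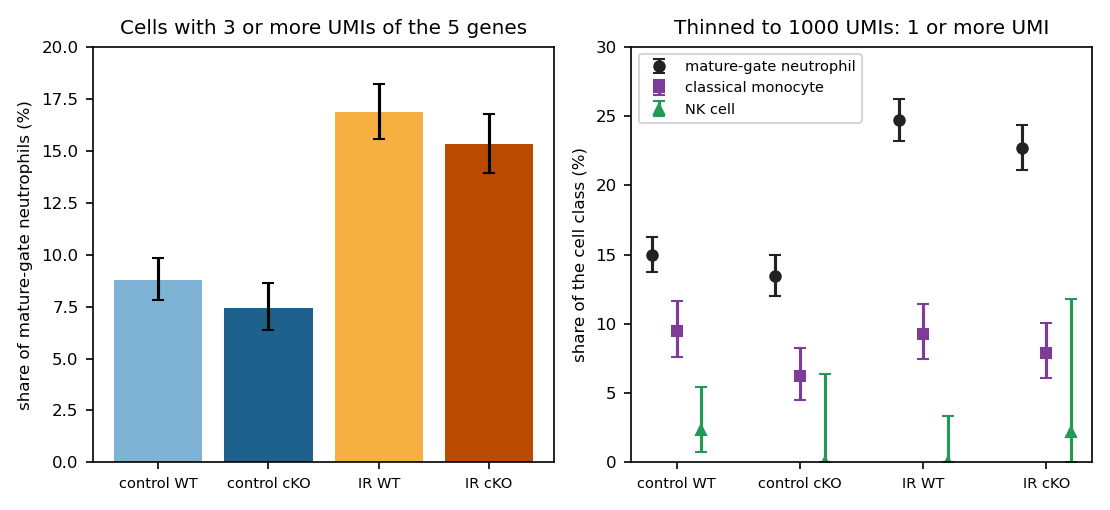
Left, share of mature-gate neutrophils with a 5-gene count of 3 or more in each pool (bars, percent). Right, share of cells with 1 or more UMI of the 5 genes after thinning every cell to 1000 UMIs, for mature-gate neutrophils, classical monocytes and NK cells (percent). Error bars are exact 95% binomial intervals, which cover counting error only, and the IR pools of neutrophils lie above the control pools in both panels.

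The order of the pools was the same at equal depth. Members had a median of 2806, 2651, 2848 and 2785 UMIs in control WT, control cKO, IR WT and IR cKO, the order used in every list of 4 values below, and other neutrophils had 2511, 2539, 2581 and 2579. After each cell was thinned to 1000 UMIs, which left out 29, 8, 29 and 9 cells, 15.0%, 13.4%, 24.7% and 22.7% of mature-gate neutrophils kept at least 1 UMI of the 5 genes. At least 2 UMIs were kept by 5.96%, 5.28%, 11.8% and 10.8%, and the share of free-RNA droplets at this limit was not computed. A droplet of 1000 UMIs made only of free RNA would hold at least 1 in 14.4% of cases in control and 25.4% in IR. These values are close to the neutrophil shares with at least 1 UMI. NK cells, a lymphoid class, gave 2.37%, 0%, 0% and 2.22% at a median depth of 3183, 3106, 3502 and 3406 UMIs, and the exact intervals of the 0 of 56 and 0 of 109 cells reached 6.38% and 3.33%. Classical monocytes gave 9.51%, 6.22%, 9.29% and 7.88% and dendritic cells 6.32%, 8.25%, 11.4% and 9.93%. Neutrophils had a higher share than these classes in every pool. Nonclassical monocytes, few in number, gave 2.88%, 11.8%, 26.2% and 19.2%, above the neutrophils in IR WT.

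The 5-gene count was spread over a wide range with most cells at its low end. A count of 0 was found in 75.1%, 76.3%, 62.4% and 63.6% of mature-gate neutrophils, and a count of 20 or more in 0.575%, 0.323%, 1.74% and 1.01%. In every class from 1 UMI upwards the share was higher in both IR pools than in both control pools. The highest counts in a cell were 51, 37, 67 and 56, and the median over members was 5, 5, 6 and 5. The 10% of mature-gate cells with the highest counts held 79.7%, 77.7%, 70.8% and 69.6% of all UMIs of the 5 genes.

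**Figure D2:**
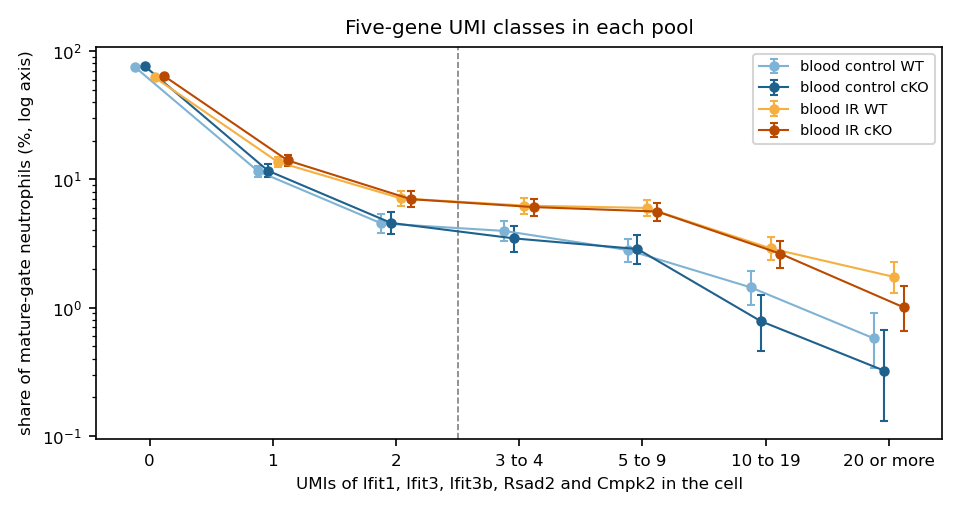
Share of mature-gate neutrophils (percent, log axis) in each class of the 5-gene count, with 1 line per pool and exact 95% binomial intervals. The dashed line is the limit of the rule, and both IR pools lie above both control pools in every class from 1 UMI to 20 or more.

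Most members held UMIs of several rule genes. At least 2 of the 5 genes were detected in 74.9%, 80.7%, 86.6% and 85.6% of members, and all 5 in 10.9%, 9.94%, 12.6% and 9.60%. Rsad2 was the most widely detected, in 91.6%, 88.2%, 88.0% and 88.4% of members. Ifit1 was detected in 45.1%, 43.5%, 53.1% and 54.8%, and Ifit3 in 36.7%, 39.1%, 53.2% and 47.7%. Both IFIT genes were found in a larger share of members in the IR pools, whereas Cmpk2, at 46.2%, 47.8%, 43.7% and 42.4%, was found in a smaller share.

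The levels of the rule genes show what the rule selected. Rsad2 lay at 1028, 860.5, 1036 and 1029 CPM in members against 46.3, 46.2, 70.5 and 65.5 CPM in other neutrophils. Ifit1 lay at 406, 325, 476 and 521 CPM against 8.09, 10.4, 12.2 and 15.5 CPM, and Ifit3 at 271, 299, 554 and 499 CPM against 4.60, 3.82, 10.5 and 12.2 CPM. In the others all 3 were higher in both IR pools than in both control pools. In members this held for Ifit1 and Ifit3, while Rsad2 in control WT was nearly level with the IR pools. Ifit3b lay at 238, 225, 381 and 295 CPM in members and Cmpk2 at 212, 259, 223 and 225 CPM. Counts of Ifit3 are uncertain in part, since 27 of 511 stretches of 90 bases in its last 600 bases (5.28%) were also found in Ifit3b transcripts.

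The limit cut a continuous range. Isg15, a ubiquitin-like protein outside the rule, lay at 417, 544, 629 and 721 CPM in cells just outside the limit, with a 5-gene count of 2, and at 539.6, 565, 796 and 806 CPM in cells just inside it, with a count of 3. Oasl2, of the oligoadenylate synthetase family, lay at 331, 597, 595 and 606 CPM just outside and 513, 646, 712 and 552 CPM just inside. Isg15 was higher just inside in all 4 pools, and Oasl2 in 3 of 4.

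Across the whole range the levels differed more. Isg15 lay at 164, 118, 224 and 213 CPM in cells with a count of 0 and at 2134, 3157, 2647 and 2851 CPM in cells with a count of 10 or more. Usp18, which removes ISG15 from proteins and dampens receptor signalling, lay at 6.73, 7.45, 7.81 and 8.63 CPM and 145, 127, 203 and 188 CPM, and Irf7, a transcription factor that amplifies interferon production, at 60.1, 56.9, 93.0 and 90.4 CPM and 556, 601, 534 and 488 CPM. All 3 were higher in the upper class in all 4 pools. Csf3r, the receptor of the growth factor G-CSF, lay at 2473, 2462, 2635 and 2783 CPM and 2097, 2301, 2364 and 2382 CPM, lower in the upper class in every pool by a small amount. Il1b, the inflammatory cytokine IL-1β, lay at 10089, 7810.2, 8572 and 7758 CPM and 8982, 6476, 8834 and 7096 CPM.

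**Figure D3:**
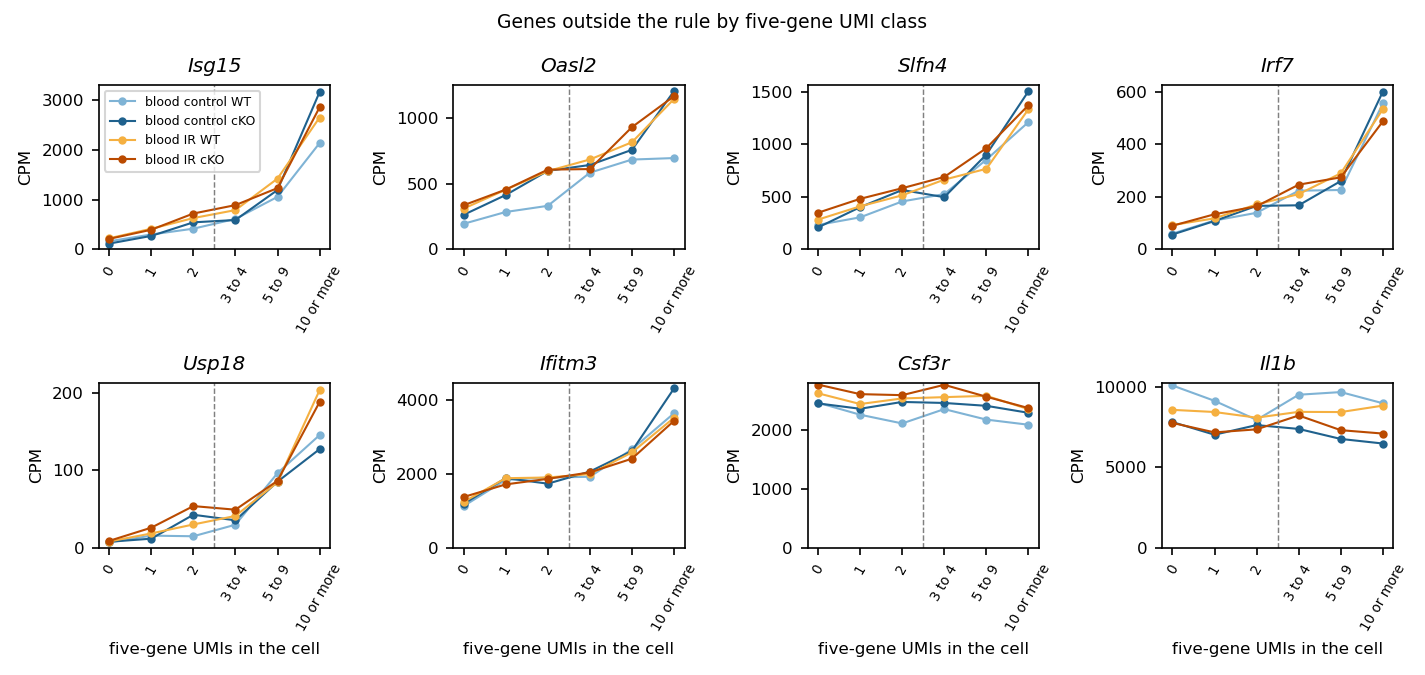
CPM of 8 genes outside the 5 interferon genes of the rule in mature-gate neutrophils grouped by 5-gene count, 1 line per pool, with the limit of the rule as a dashed line. Isg15, Oasl2, Slfn4, Irf7, Usp18 and Ifitm3 are higher at high counts, while Csf3r and Il1b change little.

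Members were then set against other mature-gate neutrophils of the same pool. A gene was measured where it had at least 50 UMIs over both kinds of cell and at least 5 expected member UMIs in every pool, and past the limit where its log2 ratio of CPM was at least 1 in size with the same sign in all 4 pools. Of 5448 measured genes, 52 were past the limit in the higher direction (0.954%) and 0 in the lower (0%). The 5 rule genes were among them, 32 belonged to a list of interferon-stimulated genes outside the rule, 9 to other lists and 6 to none. Scaling by trimmed means (TMM) moved every log2 ratio by -0.14, -0.22, -0.03 and 0.00 in the 4 pools and left 49 higher and 0 lower. Of the 93 genes on the interferon list 62 were measured, and their median log2 ratio was 1.43, 1.46, 1.21 and 1.19, where all measured genes had medians of 0.02, 0.07, -0.03 and -0.05. The cells were chosen on genes of the same response, so these counts are no evidence apart from the rule.

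The markers given for the state were met. Beside Ifit1, Ifit3 and Ifit3b, which the rule used, Oasl2 lay at 646, 774, 867 and 867 CPM in members against 216, 301.7, 363 and 381 CPM in others (log2 ratios 1.58, 1.36, 1.26 and 1.19). Slfn4, a Schlafen gene of myeloid cells, lay at 819, 807, 899.7 and 963 CPM against 257, 255, 328 and 393 CPM (1.67, 1.66, 1.45 and 1.29). Members had the higher level in every pool for both genes. A Slfn4 UMI was found in 76.7%, 75.2%, 78.2% and 82.6% of members and 40.3%, 40.7%, 47.7% and 51.6% of others, so many other neutrophils held it too.

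Of the IFIT family outside the rule, Ifit1bl2 lay at 71.7, 92.3, 98.6 and 123 CPM against 18.8, 21.1, 22.3 and 30.3 CPM, and its promoter window shares 245 bases with that of Ifit1. Ifit2 was too low to be measured by the limits above and gave 63, 29, 120 and 87 UMIs in members against 4, 7, 9 and 4 UMIs in the far more numerous others. In CPM this was 62.8, 53.5, 68.0 and 71.1 against 0.498, 1.27, 1.24 and 0.667. Most Ifit2 UMIs were thus in members in each pool, but only 10.2%, 8.70%, 10.1% and 7.07% of members held one. Ifit2 was not in the rule but belongs to a family on which the rule selected, so this is no evidence apart from the rule.

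ISG15 is attached to proteins by its own enzymes, and 3 of 4 measured genes of this group were past the limit. Isg15 lay at 1172, 1222, 1568 and 1515 CPM in members against 199, 162, 296 and 291 CPM in others (log2 2.56, 2.92, 2.40 and 2.38), and 76.0%, 74.5%, 81.1% and 81.3% of members held a UMI of it against 27.9%, 23.1%, 38.1% and 37.0% of others. Herc6, the ligase that attaches ISG15 in mice, lay at 104, 116, 139 and 136 CPM against 8.34, 11.3, 15.3 and 12.7 CPM, and Usp18 at 82.7, 68.3, 105 and 98.1 CPM against 8.46, 9.82, 11.8 and 15.7 CPM. Uba7, the activating enzyme of the pathway, had log2 ratios of 0.78, 1.07, 1.23 and 0.29 and was not past the limit.

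In the list of the oligoadenylate synthetase pathway, which senses double-stranded RNA, 4 of 5 measured genes were past the limit. Oasl1 lay at 183, 164, 202 and 204 CPM in members against 23.3, 21.6, 39.7 and 32.8 CPM, and Oas3 at 326, 369, 365 and 418 CPM against 86.7, 119, 133 and 135 CPM. Oas2 had log2 ratios of 1.67, 2.02, 1.58 and 1.44.

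Among 20 measured genes of other antiviral effectors, 10 were past the limit. Xaf1, a proapoptotic interferon-induced gene, had log2 ratios of 2.30, 2.08, 2.56 and 2.46, and Rnf213, a large ubiquitin ligase, had 1.94, 2.04, 1.96 and 2.02. Bst2 (tetherin), which holds budding virus at the membrane, had 1.91, 2.05, 1.79 and 1.58, and Isg20, an RNA exonuclease, had 1.49, 2.08, 1.65 and 1.72. The interferon-induced transmembrane genes were uneven. Ifitm3 lay at 2623, 2618, 2648 and 2523 CPM in members against 1269.9, 1308, 1413 and 1471 CPM in others, whereas Ifitm1 and Ifitm2 had log2 ratios of 0.00, -0.21, -0.19 and -0.06 and of -0.14, -0.26, -0.04 and -0.12.

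The Schlafen family was uneven too, with 3 of 5 measured genes past the limit and all 5 higher in every pool, where 642 of all 5448 measured genes were (11.8%). Slfn5 lay at 645, 471, 757 and 701 CPM in members against 90.1, 66.0, 136 and 138 CPM in others, and Slfn8 had log2 ratios of 2.31, 2.72, 1.85 and 1.88, with 2.16% of the stretches near its end shared with Slfn9. Slfn1 and Slfn2, of which Slfn2 keeps lymphocytes quiescent, had 0.68, 0.44, 0.48 and 0.49 and 0.46, 0.29, 0.36 and 0.28.

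Of the interferon-inducible GTPases, which act on vacuoles of pathogens, 5 of 6 measured genes were past the limit. Gbp2 lay at 163, 257, 303 and 261 CPM against 48.8, 52.4, 85.7 and 63.4 CPM, and Gbp7 at 139, 168, 209 and 231 CPM against 34.3, 57.7, 65.9 and 67.9 CPM. Irgm1 and Igtp had log2 ratios of 2.04, 1.83, 1.46 and 1.34 and of 1.70, 1.94, 1.55 and 1.70. Tgtp1 and Gbp2b had 0 UMIs in members and others of all 4 pools.

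Nucleic acid sensors that recognise foreign RNA or DNA were past the limit in 6 of 12 measured cases. Ifih1 (MDA5) lay at 93.6, 84.9, 99.7 and 88.3 CPM in members against 20.8, 20.0, 24.1 and 21.7 CPM in others, and Ddx58 (RIG-I) at 196, 149.6, 197 and 163 CPM against 53.5, 55.3, 70.5 and 68.7 CPM. Zbp1, a sensor of Z-form nucleic acids, lay at 174, 218, 261 and 242 CPM against 32.5, 45.5, 69.3 and 71.5 CPM, and Eif2ak2 (PKR) had log2 ratios of 2.36, 2.12, 1.89 and 1.90. These 4 were higher in members of every pool. Aim2, a sensor of cytosolic DNA, had -0.14, 0.68, -0.38 and -0.39, and Myd88, an adaptor of Toll-like receptors, had -0.15, 0.21, 0.25 and -0.13, both without a common sign.

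In the signalling chain, 2 of 6 measured JAK-STAT genes were past the limit. Stat2 lay at 48.8, 86.8, 74.8 and 80.9 CPM in members against 15.1, 18.0, 18.2 and 18.5 CPM. Irf9 had log2 ratios of 0.70, 1.09, 1.01 and 0.88, and Jak1 had -0.07, -0.03, 0.00 and 0.06. Irf7 lay at 316, 271, 335 and 319 CPM in members against 72.2, 69.8, 105 and 105 CPM. Stat2, Irf9 and Irf7 were thus higher in members in every pool, and the ratio of the kinase was near 0.

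The receptor genes had no common direction, and 0 of 6 measured ones were past the limit. Ifnar1 had log2 ratios of 0.26, 0.13, -0.11 and -0.28, Ifnar2 -0.02, 0.17, 0.18 and -0.13 and Ifngr1 0.17, 0.37, -0.10 and 0.01. Interferon ligands were at the edge of detection, with Ifng at 1 UMI in members of control WT and of IR WT, and Ifnb1 at 0 UMIs in members and others of all pools. At this depth their expression was not detectable.

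Class I antigen presentation was higher by small amounts. Of 15 measured genes 0 were past the limit, while 14 were higher in members in all pools, beside 11.8% of all measured genes. With TMM scaling these were 14 of 15 and 7.71%. Psmb8, a subunit of the immunoproteasome, lay at 349, 391, 395 and 319.5 CPM against 169, 151, 207 and 196 CPM, and Tap1, which carries peptides into the endoplasmic reticulum, at 113, 116, 148 and 167 CPM against 68.3, 58.2, 87.6 and 75.9 CPM. H2-K1 and B2m, a heavy chain and the light chain of class I molecules, had log2 ratios of 0.35, 0.64, 0.16 and 0.17 and of 0.25, 0.34, 0.12 and 0.14. Cd274 (PD-L1), the ligand of the checkpoint receptor PD-1, lay at 59.8, 35.1, 109 and 85.8 CPM in members against 29.4, 19.8, 49.1 and 36.2 CPM in others. Its log2 ratio of 0.81 in control cKO kept it from passing the limit, although members had the higher level in all 4 pools.

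**Figure D4:**
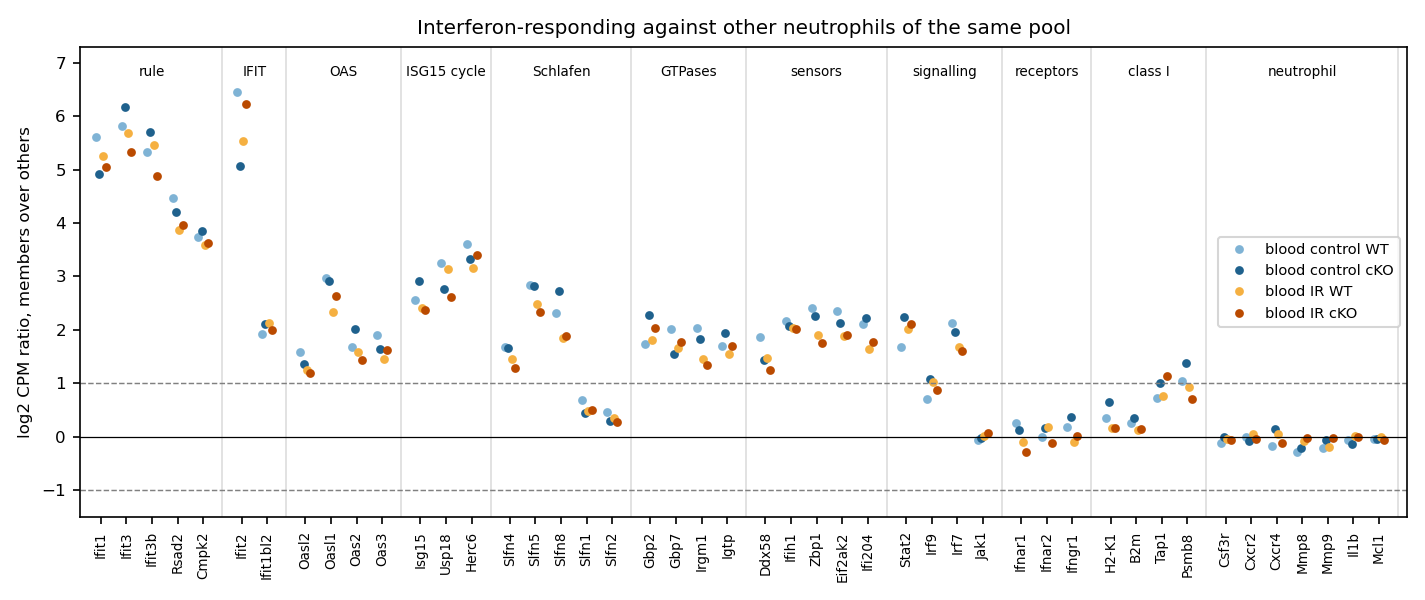
Log2 ratio of CPM, members over other mature-gate neutrophils of the same pool, for genes grouped by role, with 1 point per pool and dashed lines at the limit of 1 in size. Points for the IFIT, OAS, ISG15 and sensor genes lie mostly above the upper line, and points for receptors and neutrophil genes lie around 0.

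Of the remaining interferon list, 6 of 21 measured genes were past the limit. Ifi47, a GTPase, had log2 ratios of 2.92, 2.89, 2.71 and 2.58, and Ifi35 had 1.70, 2.01, 1.69 and 1.72. Ifi27l2a lay at 2027, 1680.3, 3312 and 3036 CPM in members against 978, 663, 1807 and 1584 CPM in others, higher in the IR pools in both kinds of cell. The 6 genes past the limit that stood on no list were Gm13822, Gm20559, Samd9l, H2-T24, Pld4 and 1600014C10Rik. Gm13822 lay at 163, 175, 174 and 168 CPM in members against 42.2, 41.8, 49.6 and 48.5 CPM, and Samd9l, an antiviral gene, had log2 ratios of 1.40, 1.27, 1.31 and 1.18.

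Functions of the mature neutrophil showed no gene past the limit. In the lists of late granule and membrane genes, chemotaxis, inflammatory cytokines and NF-κB, NADPH oxidase, survival, p53 targets and genes used for suppressor neutrophils, 0 genes were past it, and the list medians lay between -0.26 and 0.22. Il1b lay at 9421, 7009, 8558 and 7604 CPM in members against 9822, 7689, 8502 and 7619 CPM. Cxcr4, a receptor of aged neutrophils, had log2 ratios of -0.18, 0.14, 0.04 and -0.12, and Mmp9, a gelatinase, had -0.22, -0.06, -0.19 and -0.03. Casp1 and Casp4, proteases of pyroptosis, were higher in all pools at 0.77, 1.04, 0.61 and 0.70 and at 0.60, 0.65, 0.34 and 0.59. Wfdc17, used as a gene of suppressor neutrophils, was lower at -0.27, -0.33, -0.23 and -0.23, and Arg1 had 0 UMIs in members and others of all 4 pools.

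The ISRE letters shown above were found in the windows of 22 of the 43 genes past the limit that had a window (51.2%), and in 18 of 38 outside the rule (47.4%). Of all 4389 measured genes with a window, 200 (4.56%) held them. Among genes of the interferon list that were measured but not past the limit, 8 of 24 (33.3%) held them. The letters of the gamma-activated site, TTCNNNGAA, which reads the same on both strands, were in 8 of the 43 windows (18.6%) and in 8.30% of all windows. Irf7, Oasl2 and Slfn4 were past the limit without the ISRE letters in their windows.

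RNA of other cell types was unevenly spread. The 6 genes of the classical monocyte list summed to 599, 600.1, 476 and 418 CPM in members against 339.7, 359, 311 and 359 CPM in others, with 0 of the 6 at 0 UMIs in members. The nonclassical list summed to 452, 486, 228 and 170.0 CPM against 403, 223, 212 and 136 CPM. Members had the higher sum in every pool for both lists. In members a single gene was highest in each list, Ly6c2 in the classical and Nr4a1 in the nonclassical list. Ly6c2 lay at 234, 192, 256 and 213 CPM in members against 117, 139, 131 and 156 CPM in others. Nr4a1 lay at 296, 236, 168 and 101 CPM against 309, 147, 159 and 91.9 CPM, lower in members of control WT. The 8 dendritic cell genes summed to 427, 118, 92.9 and 53.9 CPM in members against 167, 155, 99.8 and 73.5 CPM in others. Members thus had the higher sum in control WT only. Of these genes, 3, 4, 3 and 5 were at 0 UMIs in members. Flt3 and Siglech were among them in each pool, but Siglech was at 0 UMIs in others too. The NK cell list summed to 233, 16.6, 39.7 and 1.63 CPM against 111, 51.1, 28.6 and 3.83 CPM. The T cell list summed to 25.9, 66.5, 9.63 and 17.2 CPM against 28.9, 32.6, 21.0 and 19.5 CPM. A cell with at least 5 UMIs of 55 genes of other lineages was found in 27 (9.82%), 14 (8.70%), 25 (4.77%) and 15 (3.79%) members, and in 4.27%, 2.94%, 2.40% and 2.06% of others. The 55 genes did not include Ly6c2 or Nr4a1. Cells that reached this limit were more common in control members than in IR members. Without them, 49 genes were past the limit in members against others upwards and 0 downwards. The 5 erythroid genes gave 50, 33, 30 and 1973 UMIs in members and 8609, 5373, 182 and 797 UMIs in others, with log2 ratios of summed CPM of -4.42, -3.996, -0.56 and 3.60. The cell with most of them held 3, 3, 2 and 1961 of these UMIs among members and 4498, 3183, 76 and 686 among others, so single cells set the sums where they were high.

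Within members, IR was compared with control. The 5 rule genes summed to 2671 CPM in IR WT and 2156 CPM in control WT, a log2 ratio of 0.31 (0.24 to 0.38), and to 2568 and 1968 CPM in the pools labelled cKO, a log2 ratio of 0.38 (0.28 to 0.49). Interferon-stimulated genes outside the rule had summed log2 ratios of 0.23 (0.21 to 0.25) in WT and 0.20 (0.17 to 0.23) in cKO members, and 0.30 (0.29 to 0.31) and 0.20 (0.19 to 0.21) in other neutrophils. The members' values became 0.35 and 0.38 with TMM scaling and 0.19 and 0.12 without the cells with RNA of other lineages. Over all mature-gate neutrophils, members and others together, the 5 genes stood at 620 CPM in IR WT against 311 CPM in control WT, and at 536 against 251 CPM in cKO, log2 ratios of 0.996 (0.93 to 1.06) and 1.09 (1.01 to 1.18). The levels differed less within members than over all these cells, and the fixed limit of 3 UMIs sets a least level for a member.

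By gene, 20 of 4264 measured genes were higher by at least 1 on the log2 scale in IR than in control members labelled WT (0.469%) and 87 lower (2.04%). In members labelled cKO, 14 of 3334 were higher (0.42%) and 80 lower (2.4%). Other neutrophils had 0.268% of genes higher and 1.7% lower in WT and 0.448% higher and 1.48% lower in cKO. TMM scaling added 0.11 and 0.18 to every log2 ratio and gave 29 higher and 57 lower in WT and 35 higher and 51 lower in cKO. Without the cells that held at least 5 UMIs of other lineages, there were 20 higher and 17 lower in WT and 34 higher and 12 lower in cKO. Leaving cells out also changes the number of measured genes, so these counts have no common base with those above. Of the 69 and 62 measured interferon-stimulated genes outside the rule, 0 and 1 were past the limit upwards and 2 and 0 downwards.

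Cxcl10, a chemokine that attracts T cells, was the only gene past the limit upwards in both genotype labels. It lay at 31.7 against 6.97 CPM in members labelled WT, a log2 ratio of 2.08 (1.05 to 3.56), and at 50.7 against 11.1 CPM in those labelled cKO, 2.08 (0.99 to 3.69). The UMIs came from few members, 5 in control WT, 3 in control cKO, 17 in IR WT and 5 in IR cKO, and in IR cKO 1 cell held 42 of 62. Without the cell with most UMIs in each pool the log2 ratios were 1.93 in WT and 1.85 in cKO. These rest on 37 against 5 and 20 against 2 UMIs, IR first, fewer than the IR contrasts required of a measured gene. In control cKO the cell left out held 4 of 6 UMIs. The share of members with a Cxcl10 UMI was 1.82% in control WT and 3.24% in IR WT. In cKO it was 1.86% in control and 1.26% after IR, so it was not higher after IR there. The exact intervals overlapped in both labels. With all cells kept, other neutrophils had log2 ratios of 2.67 and 0.66.

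Downwards, 33 genes were past the limit in both labels, of at most 3334 that could be measured in both. The same overlap was not counted in other neutrophils. Pou2f2, a transcription factor known from B cells, lay at 24.9 against 85.7 CPM in WT and 25.3 against 124 CPM in cKO members, IR first, and Ace, found in nonclassical monocytes, at 15.9 against 46.8 CPM and 14.7 against 84.9 CPM. Klf4, a transcription factor of monocytes, had log2 ratios of -1.97 and -1.57. Chil3 and Crip1 had log2 ratios of -1.52 and -1.61 and of -1.52 and -1.74. The other genes included many of ribosomal proteins and the monocyte genes Ccr2 and F13a1. Without the cells with RNA of other lineages, 14 of the 33 were measured in both labels and 0 were past the limit in both. Those cells were left out on 55 genes that include Ace, Ccr2 and F13a1. For these genes the outcome follows in part from that choice.

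**Figure D5:**
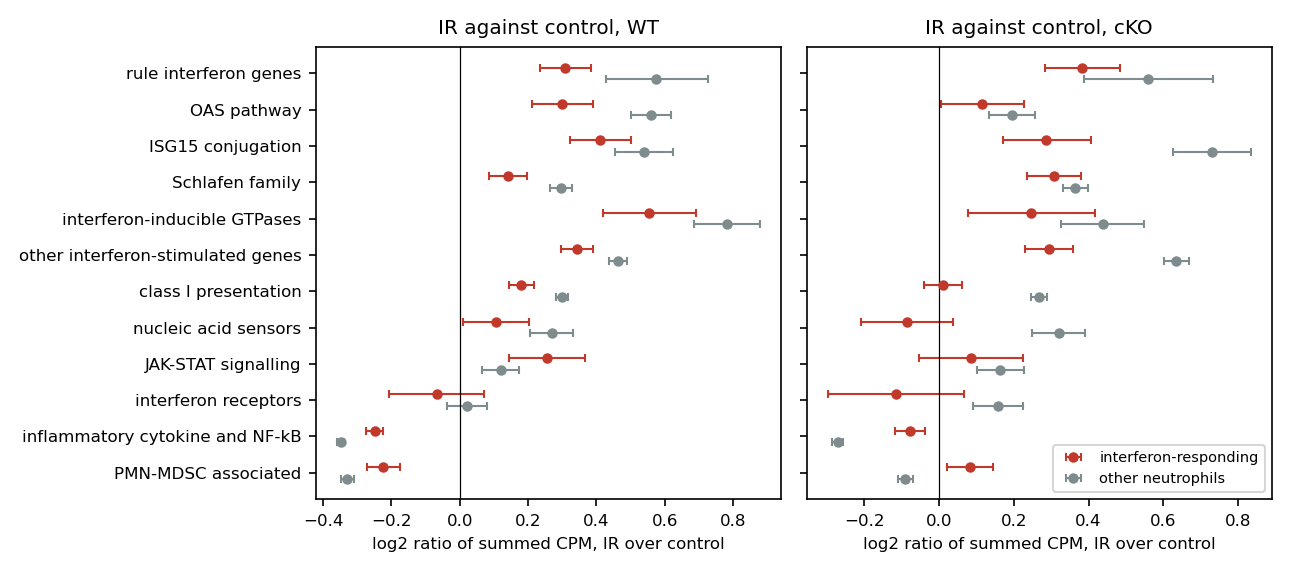
Log2 ratio of summed CPM, IR over control, for gene lists in members and other mature-gate neutrophils, in cells labelled WT (left) and cKO (right), with 95% intervals that cover counting error only. The 5 rule genes lie to the right of 0 in both kinds of cell and both labels, and inflammatory cytokine and NF-κB genes lie to the left, although with TMM scaling, which is not plotted, their value in cKO members was 0.10.

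Inflammatory cytokine and NF-κB genes had summed log2 ratios of -0.25 (-0.28 to -0.22) in WT and -0.08 (-0.12 to -0.04) in cKO members, IR over control, and -0.35 and -0.27 in other neutrophils. With TMM scaling the members' values became -0.14 (-0.16 to -0.11) and 0.10 (0.06 to 0.14), so the direction in cKO members depended on the scaling. Class I genes had 0.18 (0.14 to 0.22) in WT and 0.01 (-0.04 to 0.06) in cKO members, and 0.30 and 0.27 in other neutrophils. The interval of class I genes in cKO members included 0, and with TMM scaling their values were 0.29 (0.26 to 0.33) and 0.19 (0.14 to 0.24). Interferon receptor genes had -0.07 (-0.21 to 0.07) and -0.12 (-0.30 to 0.07), and with TMM scaling 0.05 and 0.06, all 4 intervals including 0. Differences between the labels were not tested.

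Members labelled cKO were compared with members labelled WT in each library. Interferon-stimulated genes outside the rule had a summed log2 ratio of 0.05 (0.02 to 0.08) in control, which became -0.01 with TMM scaling, and of 0.02 after IR with an interval that included 0. The 5 rule genes had -0.13 (-0.24 to -0.02) and -0.06 (-0.12 to 0.01). In control, 17 of 3189 measured genes were higher (0.533%) and 55 lower (1.72%), and after IR 12 of 4311 were higher (0.278%) and 26 lower (0.603%). Without the cells with RNA of other lineages, which also changes the number of measured genes, there were 11 higher and 55 lower in control. After IR there were then 9 higher and 17 lower. In other neutrophils the shares were 0.945% higher and 1.63% lower in control and 0.169% higher and 0.548% lower after IR. Ythdf2, the m6A reader that the floxed allele targets, was past the limit upwards in both libraries, at 153 against 25.9 CPM in control and 160.2 against 22.7 CPM after IR, cKO first. A Ythdf2 UMI was found in 6.55%, 27.3%, 6.30% and 32.6% of members.

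Downwards, 5 genes were past the limit in both libraries, of at most 3189 that could be measured in both. This overlap too was not counted in other neutrophils. Lyz2 (lysozyme) lay at 131 against 3737 CPM in control and 105 against 2966 CPM after IR. Cxcl2, a chemokine that recruits neutrophils, lay at 1647 against 4298 CPM and 1200.4 against 3033 CPM, with log2 ratios of -1.38 (-1.49 to -1.28) and -1.34 (-1.42 to -1.25) beside -0.89 and -1.36 in other neutrophils. Thbs1, an adhesive glycoprotein, had log2 ratios of -2.94 and -1.09, and Cdkn1a, a cell-cycle inhibitor, -2.10 and -1.16. Gzma, a granzyme of NK cells, had 4 UMIs in cKO and 138 in WT members of control, and 2 and 52 after IR. Without the cells with RNA of other lineages, Ythdf2 was past the limit upwards in both libraries and Cxcl2, Lyz2 and Tgm2 downwards. Of the 5 genes, 3 were then measured in both libraries and 2 were past the limit in both. Gzma is among the 55 genes on which those cells were left out, so its loss here follows in part from that choice.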

How the data were processed

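Blood cells of 4 pools were measured by droplet sequencing with hashtag antibodies, in 2 libraries. The authors deposited raw UMI counts per gene and barcode, made with Cell Ranger 6.0.1 against mm10 with a GENCODE annotation, and their notes also name Seurat 4.0.6. Barcodes were filtered and chosen by the rule given above. A cell was labelled WT where hashtag B0301 was at least as high as B0302 and cKO where B0302 was at least 4 times B0301. No doublets were removed: Scrublet in Scanpy 1.11.5 made 0 and 1 automatic calls and so had not worked, and the 6% of cells with the highest scores were left out as an alternative only.

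UMIs were summed per pool and state, and log2 ratios of CPM were taken with 1 UMI added in proportion to depth (Python 3.11.15, NumPy 2.4.6, pandas 2.3.3). Intervals at 95% are exact binomial for shares, Newcombe for differences of shares and exact conditional binomial for ratios (SciPy 1.17.1), and cover counting error only. With 1 pool per group no test was run. IR and cKO contrasts needed at least 50 UMIs over both pools, and a gene was past the limit at 1 in size. The steps were tested on simulated data. Alternatives changed the limits, thinning, TMM scaling (edgeR 4.0.16), hashtag rule, doublets and pools left out.

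The members and gene lists were chosen with earlier results of these data known. Named genes are the rule genes and markers, up to 4 leading measured genes of each list with those the list is known for, and the leading genes outside the lists or shared by both pairs of pools. Oas1b, Mx1, Mx2 and Cxcl11 were not analysed here, and some members of the lists are not reported here.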

Additional observations from a re-analysis of the deposited data

Results flagged for a closer look

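Barcodes without a genotype call were used in no comparison, and the interferon genes were found in them too. Mature-gate neutrophil barcodes of this kind numbered 265 in the control library and 263 in the IR library, of which 55 (20.8%) and 88 (33.5%) had a 5-gene count of 3 or more. After thinning to 1000 UMIs, 18.7% (47 of 252) and 28.2% (72 of 255) kept at least 1 UMI of the 5 genes. Droplets of that size made only of free RNA would do so in 14.4% and 25.4% of cases, somewhat below these shares. Their median depth was 4998 and 5026 UMIs, against 2542 and 2616 UMIs over the mature-gate neutrophils of the libraries that had a genotype call. The part of mixed droplets in these shares was not tested.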

How the results depend on the processing

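The IR share stayed above the control share in both labels under all 11 alternatives, with ratios of 1.65 to 2.20 in WT and 1.69 to 2.33 in cKO. The difference of 8.07 points in WT became 10.6 with a limit of 2 UMIs, 5.79 with a limit of 5, and 9.75 and 5.82 after thinning with limits of 1 and 2. The difference of 7.89 points in cKO became 10.3, 5.28 and, after thinning with a limit of 2, 5.55. The 52 genes higher in members became 31 with at least 200 UMIs per gene, and 52 to 61 when a pool was left out, with 0 to 2 lower (Cradd and Hba-a2 without IR cKO).

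Counts of genes in the contrasts within members depended on the least number of UMIs. The number of measured genes also changes with this limit and with the cells kept, so counts under different settings have no common base. IR against control gave 107 in WT (2.51% of 4264 measured genes) and 94 in cKO (2.82% of 3334). These became 371 and 352 with at least 20 UMIs, 25 and 27 with at least 200, and 46 and 49 with interferon genes at 0.1% of UMIs. Without doublets by Scrublet WT gave 52, and without cells with RNA of other lineages, an alternative chosen after seeing the data, the counts were 37 and 46. The cKO against WT counts were 72 in control (2.26% of 3189 measured genes) and 38 after IR (0.881% of 4311). They became 268 and 204 with at least 20 UMIs and 13 and 11 with at least 200.

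Summed interferon-stimulated genes, IR over control, were 0.23 in WT and 0.20 in cKO. TMM gave 0.35 and 0.38, interferon genes at 0.1% of UMIs 0.19 and 0.16, leaving out Scrublet doublets 0.21 and 0.15, and leaving out other-lineage cells 0.19 and 0.12, and a limit of 5 UMIs gave 0.14 in cKO. For cKO over WT, 0.05 in control became -0.0093 with TMM, 0.12 with a limit of 5 and 0.0010 with a symmetric hashtag rule, and 0.02 after IR became 0.040 with a limit of 5 and, with the symmetric rule, -0.013. The causes were not tested. Of 476 values of 34 named genes, 18 changed sign, in Ifnar1, Cxcr2, Cxcr4 and Il1b, whose mean log2 ratios over the pools were -0.0014, -0.023, -0.029 and -0.047. No paired analysis was possible because each group is 1 pool. Depth limits genes under 50 UMIs.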

Other observations

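Other blood cells carried the interferon genes as well. After thinning to 1000 UMIs, 2.88%, 11.8%, 26.2% and 19.2% of nonclassical monocytes kept at least 1 UMI of the 5 genes in control WT, control cKO, IR WT and IR cKO (3 of 104, 19 of 161, 16 of 61 and 5 of 26 cells). The exact 95% interval was 0.599 to 8.20 in control WT and 15.8 to 39.1 in IR WT, and 7.26 to 17.8 in control cKO and 6.55 to 39.4 in IR cKO. The intervals of the WT pools did not overlap and those of the cKO pools did.

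Granule-rich neutrophils, with at least 3 UMIs of Ngp, Camp and Ltf, numbered 49, 375, 32 and 22, so most came from control cKO. After thinning to 1000 UMIs, 10.6%, 8.53%, 15.6% and 13.6% of them kept at least 1 UMI of the 5 genes, beside 15.0%, 13.4%, 24.7% and 22.7% of all mature-gate neutrophils. The exact intervals overlapped in 3 of 4 pools, and in control cKO they were 5.91 to 11.8 and 12.03 to 14.95.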
